A study of Mus musculus with 18 samples.

Results

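Transcripts of 9 genes that carry dorsal forebrain progenitors from commitment to young neurons were followed in mouse cerebral cortex, out of 54281 genes in the deposited table. The members were the proneural factor genes Neurog1 and Neurog2, the intermediate progenitor genes Insm1 and Eomes, the genes Nhlh1 and Mfng, and the neuronal differentiation factor genes Neurod1, Neurod2 and Neurod6. They were chosen by name, by matching the gene IDs of the table to symbols in GENCODE mouse release M21, and all 9 were found and passed the filter on low counts. Bulk RNA was sequenced from cerebral cortex of male C57BL/6J mice before birth (E17.5), after birth (P4) and at 2 later stages whose labels read A6w and A18w. Each stage had 4 libraries, 2 of them wild type (WT) and 2 labelled Mcph1KO, a knockout of the microcephaly gene Mcph1. Wild-type R1 mouse embryonic stem cells (mESC), an established line grown in culture, gave 2 further libraries. The labels describe the knockout no further, name no treatment, and do not say whether each library came from a separate animal, so every p-value measures the spread between libraries.

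In the developing cortex, radial glia switch on proneural basic helix-loop-helix (bHLH) factors such as Neurog2 when they commit to making glutamatergic neurons, while Notch signalling holds their neighbours back. Many committed cells become intermediate progenitors, which carry Eomes and Insm1 and divide again before their daughters turn on the Neurod factors. Neurod2 and Neurod6 stay on in projection neurons after they have left the cell cycle, and Neurod1 also serves newborn granule neurons of the dentate gyrus.

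The 18 libraries held between 23531045 and 32041849 counts. Levels are given as CPM, counts relative to library size after TMM scaling, and each list of values below runs WT number 1, WT number 2, Mcph1KO number 1, Mcph1KO number 2. Tbr1, a factor of cortical projection neurons, lay between 140 and 353 CPM in every cortex library. Mcph1 itself ran from 8.36 to 12.5 CPM in WT cortex and from 11.7 to 16.6 CPM in cortex labelled Mcph1KO, and no loss of it was seen, so genotypes are written as labelled. Choroid plexus, thalamic, striatal and hippocampal transcripts differed several-fold between libraries of 1 group, and some of those that moved with a member are given beside it. In bulk samples, fewer cells of a type and less RNA per cell cannot be told apart.

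The promoters of 6 members are shown because the 9 genes fell together, yet to very different depths, between E17.5 and P4. Each is the 250 bases before the annotated start, from RefSeq on GRCm38.p6, in the direction of transcription. Capitals mark E-boxes, the motif CANNTG that bHLH factors bind, which reads the same on both strands. The first 4 belong to the genes of the steepest fall and the last 2 to the genes that fell least.
Neurog1, chr13:56252181-56252430, minus strand: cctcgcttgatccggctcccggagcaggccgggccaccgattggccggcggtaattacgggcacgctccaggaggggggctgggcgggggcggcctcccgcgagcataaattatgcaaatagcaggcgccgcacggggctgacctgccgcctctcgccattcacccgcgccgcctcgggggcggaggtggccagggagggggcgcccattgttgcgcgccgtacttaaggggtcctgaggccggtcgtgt
Neurog2, chr3:127632886-127633135, plus strand: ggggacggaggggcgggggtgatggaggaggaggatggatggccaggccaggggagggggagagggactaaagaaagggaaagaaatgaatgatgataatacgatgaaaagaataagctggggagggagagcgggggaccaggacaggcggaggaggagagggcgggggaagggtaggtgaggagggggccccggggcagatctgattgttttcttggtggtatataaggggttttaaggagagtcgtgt
Eomes, chr9:118477939-118478188, plus strand: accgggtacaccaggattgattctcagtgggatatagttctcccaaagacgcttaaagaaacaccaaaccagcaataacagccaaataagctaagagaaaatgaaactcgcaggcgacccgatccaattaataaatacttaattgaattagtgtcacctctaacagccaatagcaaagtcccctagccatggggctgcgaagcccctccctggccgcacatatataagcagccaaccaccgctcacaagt
Nhlh1, chr1:172057597-172057846, minus strand: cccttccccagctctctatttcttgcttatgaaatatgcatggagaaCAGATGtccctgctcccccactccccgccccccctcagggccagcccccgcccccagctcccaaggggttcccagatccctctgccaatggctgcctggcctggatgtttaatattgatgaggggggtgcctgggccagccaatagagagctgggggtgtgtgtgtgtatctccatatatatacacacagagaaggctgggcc
Neurod2, chr11:98329646-98329895, minus strand: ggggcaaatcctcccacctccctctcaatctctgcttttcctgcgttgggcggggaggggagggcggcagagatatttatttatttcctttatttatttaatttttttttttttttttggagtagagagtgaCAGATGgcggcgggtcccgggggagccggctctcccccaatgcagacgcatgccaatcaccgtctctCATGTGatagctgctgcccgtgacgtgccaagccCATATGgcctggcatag
Neurod6, chr6:55681264-55681513, minus strand: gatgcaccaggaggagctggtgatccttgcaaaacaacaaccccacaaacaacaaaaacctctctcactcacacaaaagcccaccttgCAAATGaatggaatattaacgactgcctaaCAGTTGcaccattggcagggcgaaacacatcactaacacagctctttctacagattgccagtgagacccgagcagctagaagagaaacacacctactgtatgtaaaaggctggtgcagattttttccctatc
The table held 7 of the 9 promoters, and 4 of the 7 contained an E-box. Neurod2 had 3, Neurod6 had 2, and Nhlh1 and Neurod1 had 1 each. No E-box lay in the windows of Neurog1, Neurog2 or Eomes. Across 32851 mouse promoters of the same length, 66.2% held at least 1 E-box and 12.2% held 3 or more. The form CAGATG, searched on both strands, was found in Nhlh1 and Neurod2 and in 14.4% of all promoters. The T-box motif AGGTGTNA, searched on both strands, which Eomes-type factors bind, was in none of the 7 and in 2.68% of all promoters. These letter matches are a description of the windows and show no binding.

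All 9 genes fell from E17.5 to P4, and their means fell into 3 tiers. Neurog1, Neurog2, Eomes and Nhlh1 kept 0.604% to 6.52% of their E17.5 mean, Mfng and Insm1 kept 17.1% and 21.5%, and Neurod1, Neurod2 and Neurod6 kept 43% to 54.9%. Among all 19199 genes tested, 17.9% were called lower at this step (edgeR quasi-likelihood test, adjusted p under 0.05, both genotype labels averaged, 4 libraries against 4). The median log2 fold change was -2.55 over the 9 genes and 0.03 over all genes. In 8 of the 9, all but Neurod6, the 4 E17.5 libraries lay above all 4 P4 libraries, a separation in 1 direction or the other that 36.1% of all genes showed.

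**Figure D1:**
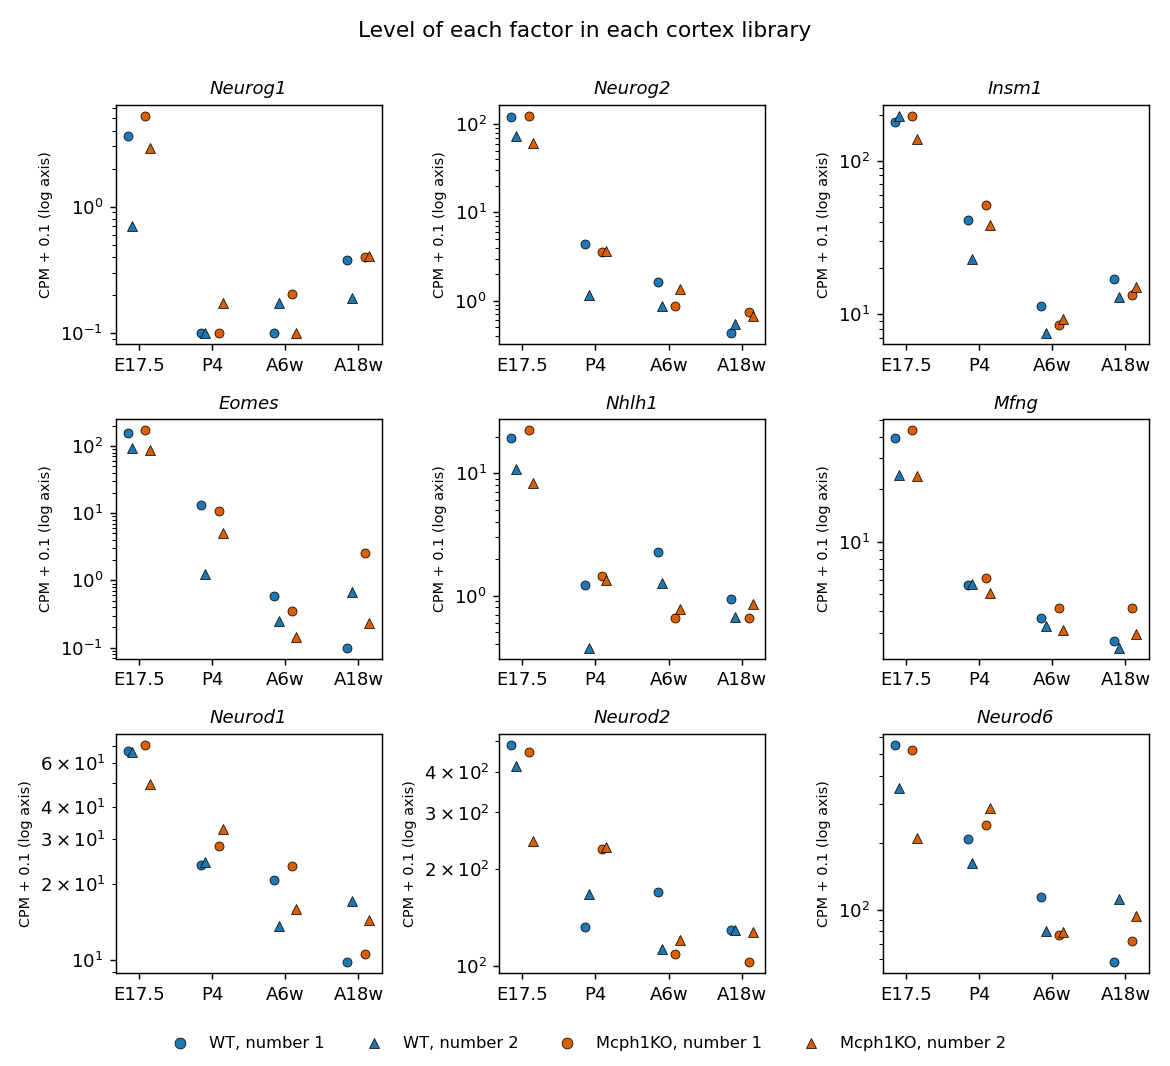
Level of each of the 9 genes in the 16 cortex libraries, as CPM plus 0.1 on a log axis whose range differs between panels. Blue marks WT and orange the libraries labelled Mcph1KO, and circles and triangles mark the numbers 1 and 2. E17.5 is highest in every panel, and Neurod6 is the panel where an E17.5 library (209 CPM) lies within the P4 range (162 to 287 CPM).

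Neurog2 (chr3:127633135-127635631, plus strand; coordinates on GRCm38) is the main proneural gene of the dorsal cortex. Its level at E17.5 was 119, 74.1, 124 and 60.2 CPM, and at P4 it was 4.27, 1.06, 3.45 and 3.6 CPM. At A6w the values were 1.54, 0.764, 0.769 and 1.24 CPM, and at A18w 0.329, 0.44, 0.646 and 0.577 CPM. No 2 neighbouring stages overlapped except P4 and A6w, where the lowest P4 library lay inside the A6w range. Neurog2 fell by 4.95 on the log2 scale (SE 0.39) to P4, with an edgeR adjusted p of 1.57e-05, and by a further 1.52 (SE 0.41, adjusted p = 0.00679) to A6w. The difference from A6w to A18w was -1.13 (SE 0.52) and did not pass (adjusted p = 0.562). Summed over 4 libraries, the counts went from 12023 at E17.5 to 45 at A18w, a 194-fold ratio after scaling (95% counting interval 145 to 266).

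Neurog1 (chr13:56250478-56252163, minus strand) works beside Neurog2 in committing progenitors and had the lowest level of the 9 genes per length. It stood at 3.49, 0.601, 5.13 and 2.81 CPM at E17.5. At P4 it had 0, 0, 0 and 2 counts, against 119, 17, 174 and 77 counts at E17.5. The groups did not overlap, and the ratio of the scaled sums was 177, with a counting interval of 48.8 to 1470. The edgeR adjusted p for the fall was 0.000271, with a fitted log2 fold change of -7.72 (SE 1.06) whose size depends on the prior count. Later levels were 0, 0.073, 0.105 and 0 CPM at A6w and 0.282, 0.088, 0.301 and 0.311 CPM at A18w, from 5 and 22 counts in all. Neither later step passed (adjusted p = 0.292 and 0.545), and these values rest on at most 7 counts a library.

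Insm1 (chr2:146221921-146225020, plus strand) encodes a zinc-finger factor that promotes the formation of intermediate progenitors. It gave 179, 196, 195 and 139 CPM at E17.5 and 40.6, 22.6, 51.1 and 38 CPM at P4. At A6w it gave 11.2, 7.38, 8.29 and 9.18 CPM, and at A18w 16.9, 12.7, 13.2 and 14.9 CPM. No neighbouring stages overlapped, and A18w lay above A6w. The fall was 2.24 on the log2 scale (SE 0.20, edgeR adjusted p = 3.07e-05) to P4 and 2.06 (SE 0.21, adjusted p = 2.94e-06) to A6w. The A18w difference of 0.68 (SE 0.21) had an unadjusted p of 0.00589 and did not pass after adjustment (adjusted p = 0.304).

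Eomes (chr9:118478212-118486132, plus strand), also called Tbr2, is the T-box factor that defines intermediate progenitors of the cortex. Its level at E17.5 was 155, 92.7, 171 and 87 CPM, and it was 13, 1.13, 10.8 and 5.05 CPM at P4. At A6w it reached its lowest level, 0.487, 0.146, 0.245 and 0.043 CPM, which was 0.182% of the E17.5 mean. All 4 P4 libraries lay below E17.5 and above A6w, and within P4 both number 1 libraries lay above both number 2 libraries. Eomes fell by 4.08 on the log2 scale to P4 (SE 0.69, edgeR adjusted p = 0.000705) and by 5.07 to A6w (SE 0.96, adjusted p = 0.00059), which was the largest fall of the 9 genes at that step. The gene Gm33460, which shares 118 exon bases with Eomes on the opposite strand, stayed between 0 and 0.146 CPM in all cortex libraries. Eomes is also a gene of some Cajal-Retzius cells. The summed Cajal-Retzius list was 639 and 678.7 CPM in the P4 number 1 libraries against 458 and 524.6 CPM in number 2. Reln made up most of that sum (494 and 566 CPM against 369 and 435 CPM). Calb2, Lhx1, Lhx5 and Ebf3 split by number in the same way, and Trp73, Ndnf and Ebf2 did not. The thalamic list was highest in P4 WT number 1, where Eomes was also highest (378.7 CPM against 124.2 to 163.8 CPM in the other P4 libraries). Progenitor lists split by number too, though not all. Radial glia genes summed to 2255 and 2175 CPM in number 1 and 2070 and 1992 CPM in number 2. Ventral progenitor and interneuron genes summed to 650.4 and 657 CPM against 481.4 and 444.9 CPM. Mitosis genes (372.1 and 237.3 against 227.8 and 241.9 CPM) did not split this way. Nor did other genes of intermediate progenitors and newborn neurons (1932 and 1596 against 1401 and 1641 CPM). The part of any of these lists in the P4 spread was not tested.

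Nhlh1 (chr1:172052292-172057573, minus strand) encodes a bHLH factor of newborn neurons. Its level went from 19.4, 10.7, 22.4 and 8.32 CPM at E17.5 to 1.11, 0.275, 1.34 and 1.24 CPM at P4. It was 2.19, 1.16, 0.56 and 0.683 CPM at A6w and 0.846, 0.571, 0.56 and 0.754 CPM at A18w. All E17.5 libraries lay above the rest, and the 3 later stages overlapped. The fall to P4 was 4.01 on the log2 scale (SE 0.44, edgeR adjusted p = 5.71e-05). The A6w difference was 0.11 (SE 0.44, adjusted p = 0.846), so no further fall of Nhlh1 was detectable.

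Mfng (chr15:78755882-78773475, minus strand) encodes Manic fringe, a glycosyltransferase that modifies Notch receptors, and it is the only member that is not a transcription factor gene. It measured 39.3, 24.1, 43.4 and 23.6 CPM at E17.5 and 5.53, 5.6, 6.13 and 5.01 CPM at P4. The later values were 3.57, 3.2, 4.06 and 3.03 CPM at A6w and 2.58, 2.37, 4.05 and 2.84 CPM at A18w. The first 3 stages did not overlap, and A18w overlapped A6w. Mfng fell by 2.55 on the log2 scale (SE 0.23, edgeR adjusted p = 3.07e-05) and then by 0.68 (SE 0.23, adjusted p = 0.0221).

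Neurod1 (chr2:79452521-79456751, minus strand) comes on as progenitors turn into neurons. Its values were 66.4, 65.9, 70.4 and 49.4 CPM at E17.5 and 23.5, 24.2, 28 and 32.8 CPM at P4. They were 20.6, 13.5, 23.3 and 15.8 CPM at A6w and 9.72, 17, 10.5 and 14.3 CPM at A18w. E17.5, P4 and A6w did not overlap, although the highest A6w library lay just under the lowest P4 library. The fall was 1.23 on the log2 scale (SE 0.21, edgeR adjusted p = 0.00068) to P4 and 0.56 (SE 0.21, adjusted p = 0.0339) to A6w. Neurod1 shares 201 exon bases with Cerkl on the same strand, which gave 0.109 to 2.22 CPM.

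Neurod2 (chr11:98325415-98329648, minus strand) and Neurod6 (chr6:55677822-55681263, minus strand) encode related factors of differentiating and mature projection neurons. Neurod2 stood at 486, 419, 463 and 245 CPM at E17.5, 132, 168, 231 and 234 CPM at P4, 170, 113, 109 and 121 CPM at A6w, and 130, 130, 103 and 128 CPM at A18w. The lowest E17.5 library lay just above the highest P4 library, and the later stages overlapped. Neurod6 stood at 551, 354, 523 and 209 CPM at E17.5, 208, 162, 241 and 287 CPM at P4, 114, 80.2, 77 and 79 CPM at A6w, and 57.9, 111, 71.8 and 93.5 CPM at A18w. Neurod6 overlapped between E17.5 and P4, but all 4 P4 libraries lay above all A6w libraries. Neurod2 fell by 1.10 (SE 0.19, edgeR adjusted p = 8e-04) and 0.55 (SE 0.19, adjusted p = 0.0243) on the log2 scale at the first and second step. Neurod6 fell by 0.88 (SE 0.28, adjusted p = 0.0249) and 1.35 (SE 0.28, adjusted p = 0.00119), and so was the one Neurod gene with the larger point estimate at the second step. The call for Neurod6 at the first step depended on single libraries. Without both E17.5 libraries numbered 1 its log2 fold change was -0.31 (adjusted p = 0.438). It was also lost when E17.5 WT number 1, E17.5 Mcph1KO number 1, P4 WT number 2 or P4 Mcph1KO number 1 was left out, with log2 fold changes from -1.14 to -0.48 over all single libraries left out.

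Ranked by the fall to P4, the order was Neurog1, Neurog2, Eomes, Nhlh1, Mfng, Insm1, Neurod1, Neurod2 and Neurod6, and ratios of the CPM means gave the same order. The first place of Neurog1 rests on 2 counts at P4, and the within-library ratios used next cannot test it. The 0.1 CPM added there caps the fall of a gene as low as Neurog1, however few its counts at P4. With that cap, the mean log2 ratio of Neurog2 to Neurog1 changed by -0.54 and that of Eomes to Neurog1 by -0.03. These values do not rank Neurog1 against either gene. Neighbours in this order were compared by their ratio within each library (CPM plus 0.1, log2). For 6 of the 8 neighbouring pairs, including Neurog2 with Eomes and Mfng with Insm1, the ratios at E17.5 and P4 overlapped, so their order was not set apart by the spread between libraries. The ratio of Mfng to Nhlh1 moved from between 0.95 and 1.49 at E17.5 to between 1.94 and 3.93 at P4, without overlap. The ratio of Neurod1 to Insm1 moved from between -1.57 and -1.43 to between -0.86 and 0.10, again without overlap. These 2 gaps lie between the 3 tiers for the genes other than Neurog1. The order and the ratios come from the same libraries, so the gaps describe the tiers and are no separate support for them. For Neurog1 the ratios overlapped with both genes of the middle tier (Mfng 3.03 to 5.11 at E17.5 and 4.89 to 5.96 at P4, Insm1 5.22 to 8.13 and 7.79 to 9), and they did not with the 3 Neurod genes. The offset caps these changes too, so the overlaps do not show how far Neurog1 fell. Within the first tier, the ratio of Nhlh1 to Neurog2 was -2.84 to -2.47 at E17.5 and -1.85 to -1.30 at P4. These genes are not neighbours in the order, and the pair was picked from all pairs. The offset weighs more on Nhlh1, which was as low as 0.275 CPM at P4. Fitted falls were 4.95 (SE 0.39) for Neurog2 and 4.01 (SE 0.44) for Nhlh1, so their order is described and was not tested.

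**Figure D2:**
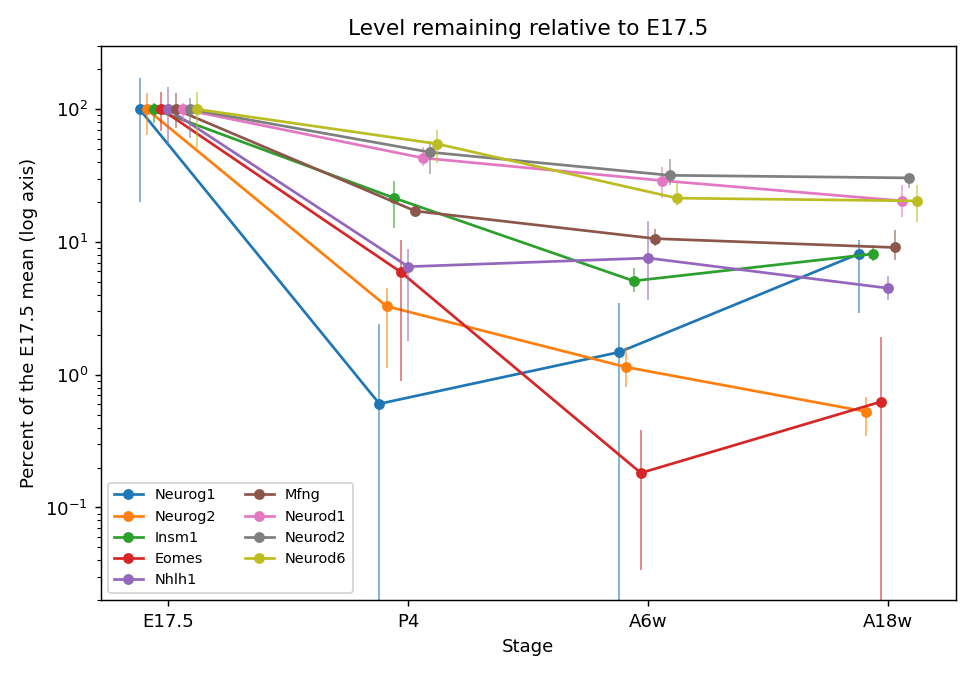
Mean level of each gene at each stage as a percentage of its E17.5 mean, on a log axis. Points are means of 4 libraries, vertical bars run from the lowest to the highest library, and bars that reach 0 run off the lower edge. The Neurod genes stay at 20.4% or more of their E17.5 mean, while Eomes reaches 0.182% at A6w.

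The order of the genes by level also changed with stage. Per kilobase of exon, E17.5 means ran from Neurod6 (190 CPM per kb), Neurod2 (128) and Insm1 (57.1) through Neurog2 (42.4), Eomes (30.4) and Neurod1 (23.1) to Mfng (11.5), Nhlh1 (6.17) and Neurog1 (1.78). The ranges over the 4 libraries overlapped for Neurod6 (97.3 to 256) and Neurod2 (77.9 to 155), for Insm1 (44.8 to 63.1) and Neurog2 (27.1 to 55.8), for Eomes (20.9 to 41.1) with both Neurog2 and Neurod1 (18.1 to 25.8), and for Mfng (8.32 to 15.3) and Nhlh1 (3.38 to 9.09). At A18w the order was Neurod2 (39), Neurod6 (38.8), Neurod1 (4.72), Insm1 (4.65), Mfng (1.04), Nhlh1 (0.277), Neurog2 (0.224), Eomes (0.19) and Neurog1 (0.146). Ranges at A18w overlapped for Neurod2 with Neurod6 and for Neurod1 with Insm1, and Eomes (0 to 0.591) overlapped with Nhlh1, Neurog2 and Neurog1, so the order within these sets is not resolved. Neurog2 thus went from above Neurod1 per kilobase at E17.5 to below it at P4 (1.39 against 9.93 CPM per kb). Neurod2, Neurod6, Neurod1 and Insm1 were the 4 genes that stayed above 10 CPM on average at A18w.

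From P4 to A6w, 7 of the 9 genes fell, against 27.8% of all genes called lower at this step. The 2 others were Nhlh1 and Neurog1. In 5 genes (Eomes, Insm1, Mfng, Neurod1 and Neurod6) the P4 and A6w libraries did not overlap, as in 51.4% of all genes. The median log2 fold change was -0.68 over the 9 genes and -0.06 over all genes. The count of 7 dropped to 4 when P4 WT number 2 or A6w WT number 2 was left out, with Mfng, Neurod1 and Neurod2 losing their calls. Mfng also lost its call without P4 Mcph1KO number 1 or A6w Mcph1KO number 2, and Neurod1 without P4 WT number 1, P4 Mcph1KO number 2 or A6w Mcph1KO number 2. Neurod2 lost it without either P4 Mcph1KO library or A6w Mcph1KO number 1, and Neurog2 without P4 WT number 1 (-0.86). Eomes, Insm1 and Neurod6 passed in every fit with 1 library left out.

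From A6w to A18w, none of the 9 genes passed, and 0.135% of all genes did (26 of 19199). Without adjustment, 4 members and 1706 of all genes had an edgeR p under 0.05, and DESeq2 called none of the 9 and 235 genes in all. Neurog2 and Insm1 were the 2 genes whose libraries did not overlap, Neurog2 lower and Insm1 higher at A18w, and 6.26% of all genes separated in this way. Median log2 fold changes were -0.06 over the 9 genes and -0.01 over all genes. The stages also differed in striatal transcripts, whose summed list was 297.9 to 512.7 CPM at A6w and 701.7 to 3096 CPM at A18w. Of its 9 genes, 5 were called higher at this step. The part of this difference in the members' changes was not tested.

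**Figure D3:**
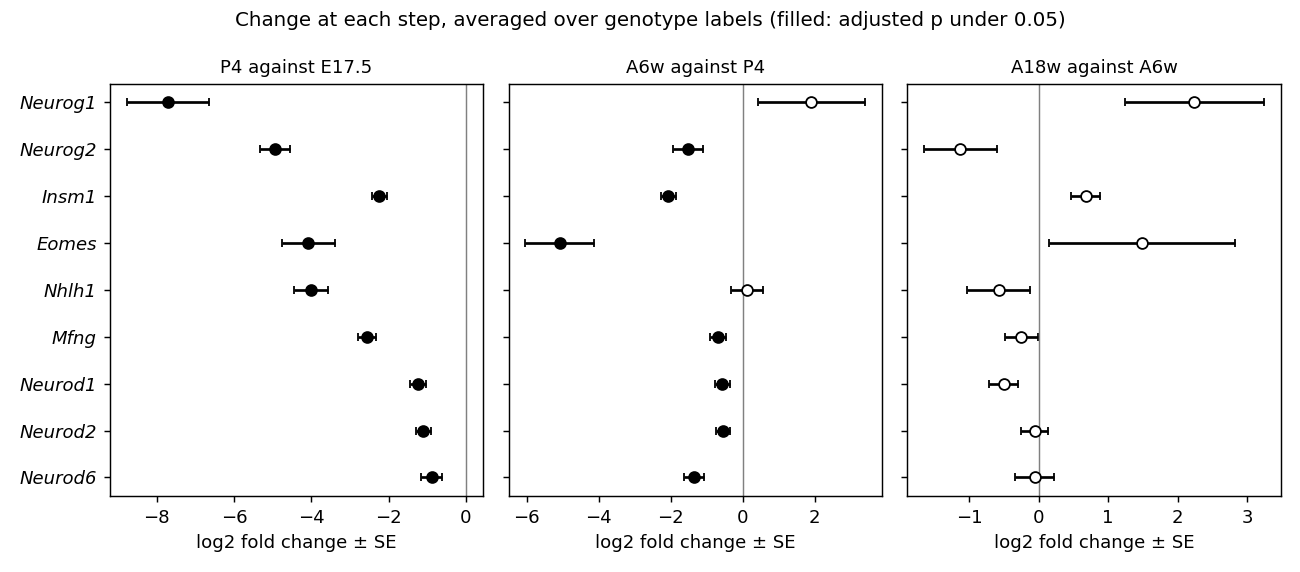
Log2 fold change with its standard error for each gene at the 3 steps between stages, averaged over genotype labels, with a different horizontal range in each panel. Filled points have an adjusted p under 0.05. All 9 are filled and negative at the first step, 7 at the second and none at the third.

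At E17.5 the libraries numbered 1 were higher than those numbered 2 for all 9 genes, on average over both genotypes, although Insm1 went the other way in WT (179 against 196 CPM). Mean log2 differences of number 1 minus number 2 were 1.63 for Neurog1, 1.14 for Nhlh1, 0.98 for Neurod6, 0.86 for both Neurog2 and Eomes, 0.79 for Mfng and 0.57 for Neurod2. They were smallest for Neurod1 (0.26) and Insm1 (0.18), and the median over all genes was 0.02. Mki67 and Top2a, genes of dividing cells, were higher in number 1 by 0.73 and 0.71. The summed mitosis list of 20 genes was 1267 and 1426 CPM in the number 1 libraries and 683.1 and 872.8 CPM in number 2. The E17.5 library labelled Mcph1KO number 1 was the highest of its stage for 6 members and Mcph1KO number 2 the lowest for 8. Thalamic transcripts went the other way, at 139.3 and 142 CPM in number 1 and 322.4 and 288.2 CPM in number 2 for the summed list of 8 genes, of which 6 were lower in both number 1 libraries. Tcf7l2, a thalamic factor, was at 7.83 and 9.43 CPM against 143 and 93.5 CPM. The summed cerebellar granule cell list also split this way (163.2 and 188.1 against 348.1 and 423 CPM). Zic1 and Zic2 made up most of that sum, with E17.5 means of 180 and 55.9 CPM. Gabra6, Barhl1, En2 and Cbln3 of the same list were at most 0.972 CPM in any E17.5 library. The split of the sum therefore does not show that the list as a whole differed between numbers. The part of the thalamic and cerebellar lists in the members' difference between numbers was not tested. Without both number 1 libraries, 8 of the 9 genes still passed from E17.5 to P4.

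In the adult libraries, some members were highest in libraries with more transcript of neighbouring regions, and others were not. The library A6w WT number 1 was the highest of its stage for 6 members (Neurog2, Eomes, Insm1, Nhlh1, Neurod2 and Neurod6). Its summed dentate gyrus and hippocampal list was 558.5 CPM, against 251.9 to 272.4 CPM in the other 3 libraries. Its summed striatal list was also the highest of the stage, at 512.7 CPM against 297.9 to 379.6 CPM. Prox1, a granule cell factor, was at 65.9 CPM there and at 12.4 to 15.7 CPM in the others, and Lct at 25 against 0.873 to 1.71 CPM. Neurod1 did not follow at A6w, being highest (23.3 CPM) in Mcph1KO number 1, where Prox1 was lowest. At A18w, Lct was 9.85 and 9.9 CPM in the number 2 libraries and 1.64 and 1.89 CPM in number 1. Neurod1 (17 and 14.3 against 9.72 and 10.5 CPM) and Neurod6 (111 and 93.5 against 57.9 and 71.8 CPM) were higher in the same number 2 libraries. Nhlh1 was not, being highest (0.846 CPM) in WT number 1, where Lct was lowest. Striatal transcripts went the other way, at 3096 and 2457 CPM in number 1 and 701.7 and 1072 CPM in number 2. The part of these transcripts in the adult levels was not tested.

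**Figure D4:**
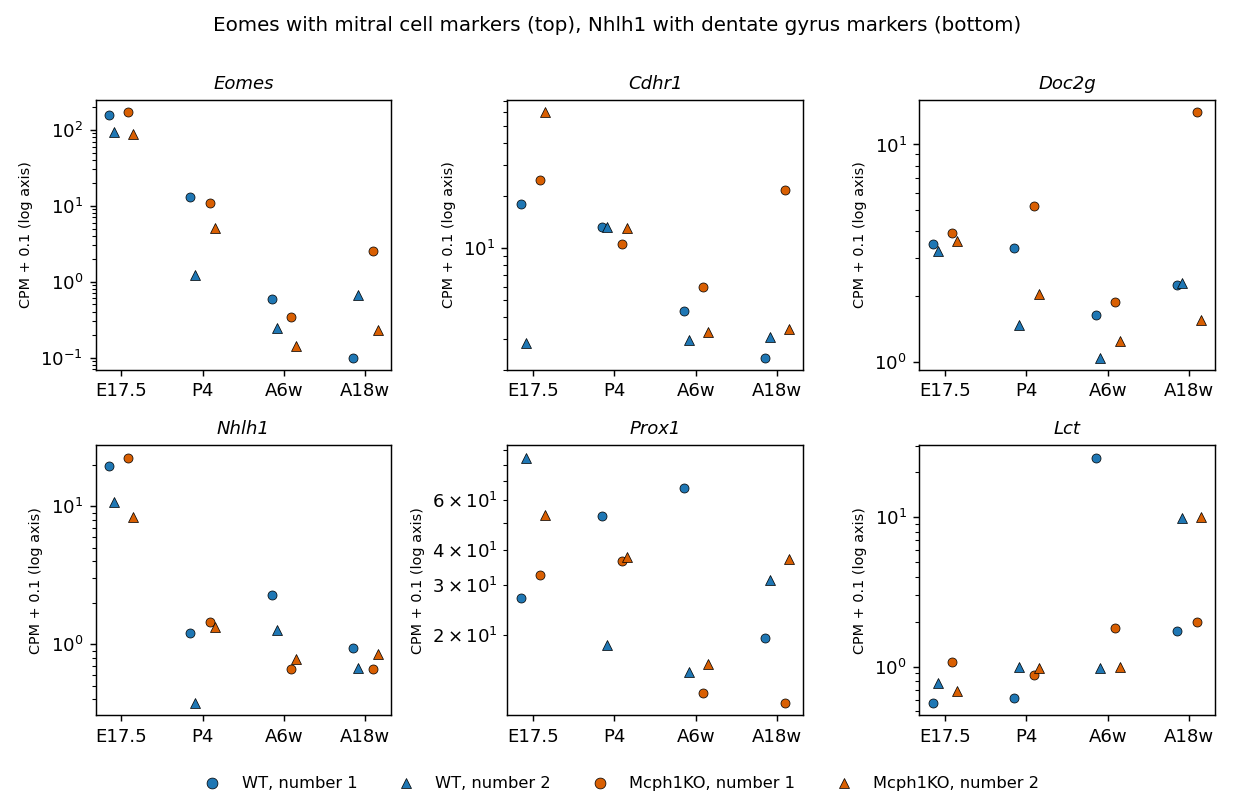
Eomes beside the olfactory bulb mitral cell markers Cdhr1 and Doc2g (top) and Nhlh1 beside the dentate gyrus markers Prox1 and Lct (bottom) in each cortex library, as CPM plus 0.1 on a log axis. The A18w library labelled Mcph1KO number 1 is highest of its stage for Eomes (2.45 CPM), Cdhr1 (21.3 CPM) and Doc2g (14 CPM), and A6w WT number 1 is highest of its stage for Nhlh1 (2.19 CPM), Prox1 (65.9 CPM) and Lct (25 CPM). At A18w Nhlh1 is highest in WT number 1, where Lct is lowest.

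Eomes at A18w rested mostly on 1 library. Of the 73 counts at A18w, 57 came from Mcph1KO number 1, and the other libraries held 0, 13 and 3 counts. Mitral cells of the olfactory bulb keep Eomes in the adult, and 3 of the 5 other genes of their list were highest in the same library. Cdhr1 was 21.3 CPM against 2.25 to 3.33 in the others, Doc2g 14 against 1.46 to 2.2, and Tbx21 0.474 against 0 to 0.178. The other 2 were not: Slc17a6, the most abundant, was lowest there (15.5 against 19.7 to 41.5 CPM), and Nmb was 2.58 CPM against 3.24 CPM in WT number 1. The summed list was 53.86 CPM there and 27.39 to 48.05 CPM in the others. Natural killer cells also carry Eomes, and their list with T cell genes summed to 0.861 CPM in that library against 0.659 to 1.174 CPM in the others. Leaving that library out changed the A18w against A6w log2 fold change of Eomes from 1.49 to -1.52, and neither value passed. The part of these transcripts in the Eomes level was not tested.

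No member was called different between libraries labelled Mcph1KO and WT. Averaged over stages, all 9 had an edgeR adjusted p of 1, and 0.0521% of all genes (10 of 19199) were called. No member and 425 of all genes had an unadjusted p under 0.05, and DESeq2 called none of the 9 and 31 genes. Log2 differences with their SE were 0.20 (0.32) for Neurog2, 0.34 (0.77) for Eomes, 0.04 (0.14) for Insm1, -0.15 (0.31) for Nhlh1 and 0.16 (0.16) for Mfng. For Neurod1, Neurod2 and Neurod6 they were 0.08 (0.15), -0.05 (0.13) and -0.04 (0.19), and for Neurog1 1.32 (0.85). The errors differ by gene, so that Insm1 and the Neurod genes are bounded far more closely than Neurog1 or Eomes, and a p that misses the threshold does not show equal levels.

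Within single stages, with 2 libraries against 2, edgeR called 0 of the 9 members and 0% of all genes at each of the 4 stages. At E17.5 the differences ran from -0.36 (SE 0.27) for Neurod2 to 0.95 (SE 0.87) for Neurog1, with Neurog2 at -0.07 (SE 0.46), Eomes at 0.06 (SE 0.85) and Insm1 at -0.17 (SE 0.27). No member and 303 of all genes had an unadjusted p under 0.05 there, and DESeq2 called none and 10. At P4, Neurod2 was the 1 member under that level (0.63, SE 0.27, edgeR adjusted p = 1), among 718 genes, with 0 and 13 called by DESeq2. The summed striatal list at P4 was 277.2 and 331.3 CPM in WT and 377.3 and 501.7 CPM in Mcph1KO. It rose over the 4 libraries in the same order as Neurod2, and its part in that difference was not tested. At A6w the member under that level was Nhlh1 (-1.43, SE 0.63, edgeR adjusted p = 1), among 763 genes, with 0 and 24 by DESeq2. A6w WT number 1, with its hippocampal and striatal transcripts, held the highest Nhlh1 value of that comparison (2.19 CPM). WT number 2 had 1.16 CPM, also above the Mcph1KO libraries (0.56 and 0.683 CPM). Its hippocampal list was the lowest of the stage (251.9 CPM), and its striatal list lay above Mcph1KO (379.6 against 300.8 and 297.9 CPM). The part of these transcripts in the Nhlh1 difference was not tested. At A18w no member and 326 genes were under that level, and DESeq2 called 0 and 3. Eomes had the largest difference there (2.13, SE 1.54), which was -1.12 without Mcph1KO number 1.

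**Figure D5:**
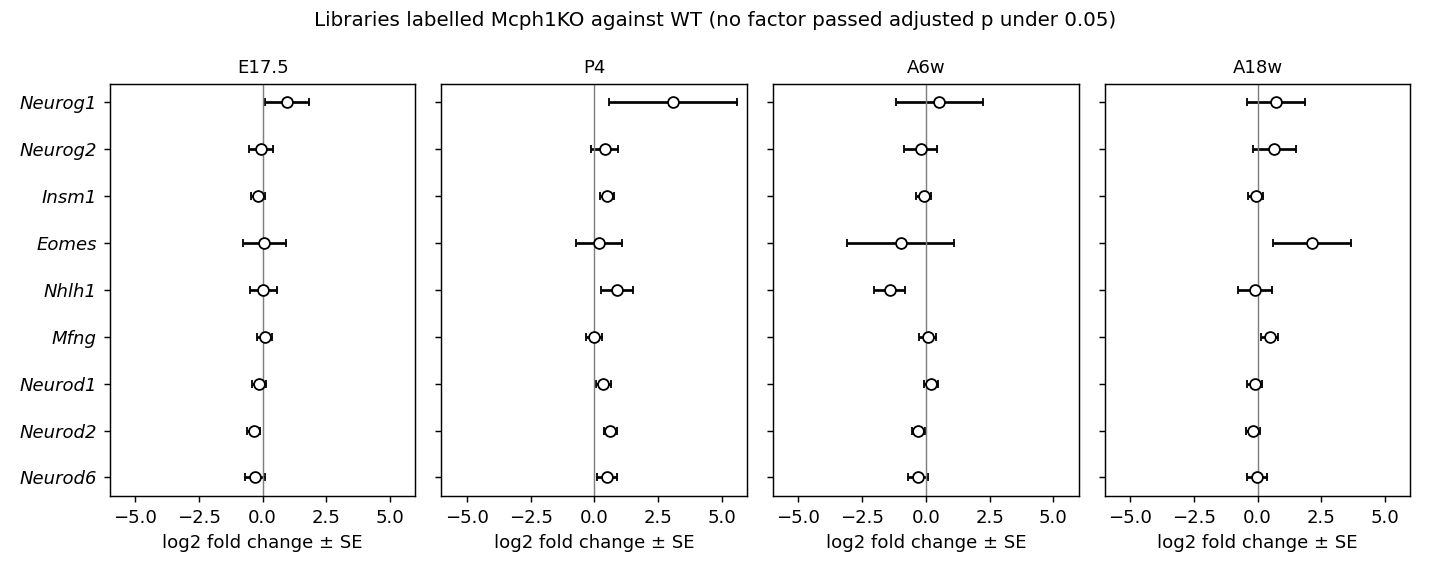
Log2 fold change, with its standard error, of libraries labelled Mcph1KO against WT for each gene at each stage (2 against 2 libraries). All points are open because none had an adjusted p under 0.05, and the longest bars belong to Neurog1 and Eomes where their counts are low.

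Nor was a change of the genotype difference over the stages called for any member, with 0 of the 9 and 0% of all genes called by edgeR. No member and 435 of all genes had an unadjusted p under 0.05, and DESeq2 called none and 8. The smallest member p was 0.0694, for Neurod2. In WT libraries taken alone all 9 genes fell to P4, with Neurod2 at -1.59 (SE 0.27) and Neurod6 at -1.29 (SE 0.39, edgeR adjusted p = 0.0387). In libraries labelled Mcph1KO taken alone 7 fell, and Neurod2 (-0.61, SE 0.27, adjusted p = 0.128) and Neurod6 (-0.47, SE 0.39, adjusted p = 0.423) did not pass. The genotype-by-stage test, which takes all stages together, gave both genes an edgeR adjusted p of 1, so the genotypes were not shown to differ here. A difference between genotypes in this step alone was not fitted. In each genotype alone 8.59% (WT) and 8.55% (Mcph1KO) of all genes were called lower at this step. From P4 to A6w, 2 genes passed in WT alone (Eomes and Insm1) and 5 in Mcph1KO alone (Neurog2, Eomes, Insm1, Neurod2 and Neurod6), against 20.3% and 19.2% of all genes called lower.

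Wild-type stem cells lay below E17.5 WT cortex for all 9 genes, and 35.3% of 19466 genes were called lower in that fit of the 10 wild-type libraries. Neurog2, Neurod2 and Neurod6 had 0 counts in both stem cell libraries. Taking 3 counts over the group as the limit, they were at least 1500-fold, 6920-fold and 7020-fold higher in cortex. Insm1 had 8 counts in each stem cell library and was 531-fold higher in cortex (counting interval 327 to 930). Nhlh1 had 3 counts in all (ratio 234, interval 80 to 1140) and Neurog1 had 4 (ratio 24.8, interval 9.48 to 92.4).

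The other 3 genes were present in stem cells. Eomes, also a gene of early mesendoderm, had 11.9 and 7.61 CPM in stem cells against 150 and 89.3 CPM in E17.5 WT cortex (log2 fold change -3.62, SE 0.90, edgeR adjusted p = 0.00457). Mfng had 8.75 and 5.49 CPM against 38 and 23.2 CPM (-2.10, SE 0.33, adjusted p = 0.000222). Neurod1 had 3.54 and 6.47 CPM against 64.3 and 63.4 CPM (-3.67, SE 0.37, adjusted p = 1.04e-05). Stem cell levels of Eomes and Mfng lay within or above their P4 to A18w range in WT cortex, since adult Eomes was at most 0.561 CPM and adult Mfng at most 3.5 CPM in that fit. Pou5f1, a pluripotency factor, was at 1480 and 1200 CPM in stem cells. The call for Neurog1 (adjusted p = 0.0148) was lost without stem cell number 2 or E17.5 WT number 1.

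Genes that act beside the 9 also moved between E17.5 and P4. Of 16 other genes of intermediate progenitors and newborn neurons, 12 fell and 1 rose, with a median log2 fold change of -1.18, where 17.9% of all genes fell and 18.9% rose. Those with the smallest adjusted p were Sox11 (-1.63) and Sox4 (-1.51), both factor genes of young neurons, Mfap4 (-1.81) and Tfap2c (-3.22). Of 7 E-protein partners and Id inhibitors, the proteins that pair with bHLH factors or block them, Tcf3 (-1.45), Tcf12 (-1.22) and Id4 (-0.88) fell and none rose. Tcf4 was at -0.34 (SE 0.19, edgeR adjusted p = 0.173). Of 8 other neural bHLH genes tested (12 listed), 3 fell and 3 rose. Neurod4 (-2.76) was among those that fell, and the oligodendrocyte lineage genes Olig1 (2.02) and Olig2 (0.91) were among those that rose.

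On the Notch side, 3 of 7 ligands and other fringe genes fell and 1 rose. The ligand genes Dll1 (-1.24), Jag1 (-1.01) and Dll3 fell, and Rfng, a fringe relative of Mfng, rose by 0.56 (SE 0.12, edgeR adjusted p = 0.00269). Lfng, the remaining fringe gene, was at -0.15 (SE 0.18, adjusted p = 0.537). Of 14 receptors and effectors 11 fell and none rose, with a median of -0.75, among them Rbpj (-1.38), the nuclear partner of Notch, Maml1 (-1.20), Notch1 (-1.08) and Notch2 (-0.95). All 20 mitosis genes fell, with a median of -1.996, and 10 of 15 radial glia genes fell and 2 rose, with Nes at -1.89 and Vim at -1.30 among those that fell. The 2 that rose were Slc1a3 (1.10) and Ptprz1 (0.87), which astrocytes and oligodendrocyte precursors also express.

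Lists of neuronal transcripts did not move together at this step. Of 16 projection neuron factor genes 9 fell and 3 rose, with a median log2 fold change of -0.60. Of 10 immature neuron genes 5 rose and none fell, and of 12 mature neuron genes 11 rose and none fell. At the next step all 10 immature neuron genes fell (median -2.75), all 20 mitosis genes fell again (median -3.38) and all 12 mature neuron genes rose (median 2.27), where 27.3% of all genes rose. In each genotype comparison, edgeR called none of the genes in these lists.

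Across the 16 cortex libraries, the members correlated with one another between r = 0.529 (Neurog1 with Neurod6) and r = 0.977 (Neurog2 with Mfng) on log2 CPM. Among 13653 other genes with a mean of at least 1 CPM, the pattern most like Neurog2 was that of Lima1 (r = 0.983), Zfp217 (0.98) and Celsr1 (0.98). For Mfng it was Lima1 (0.992), Mdk (0.985) and Plagl2 (0.984), and for Insm1 Trp53 (0.986), Tcf3 (0.986) and Frmd4b (0.985). Eomes was closest to Zfp811 (0.967), Nup37 (0.966) and Tgif2 (0.965), and Nhlh1 to Zfp12 (0.972), Zfp740 (0.968) and Gabpb2 (0.958). Neurog1 was closest to Klc4 (0.951), Nelfe (0.933) and Rprd1b (0.928). Neurod1 was closest to Fam220a (0.973), Lrp5 (0.967) and Crb2 (0.965), Neurod2 to Nck2 (0.965), Zfp599 (0.961) and Nfib (0.959), and Neurod6 to Pgm2 (0.979), Nfia (0.973) and Mllt3 (0.972). The 16 points share 4 stages, so these values describe a common course over the stages, and genes are not independent of one another.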

How the data were processed

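RNA sequencing of 16 cortex libraries and 2 stem cell libraries was analysed from the deposited gene table. The authors' values are estimated counts per gene, for which the submitters' processing notes name Trimmomatic 0.39, FastQC, Salmon 1.4.0 and GRCm38.p6, and were deposited as whole numbers, so no further rounding was applied. Per the labels' protocols, each tissue homogenate supplied both DNA and RNA, and an NEBNext Ultra RNA kit was used. Strand use and the step from transcripts to genes are not given in the sources used here, and Salmon shares reads that match several genes by estimate. Symbols came from GENCODE M21 (54107 of 54281 IDs matched, 174 without).

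The test was the quasi-likelihood F test of edgeR 4.0.16 (R 4.3.3) on these counts, scaled by TMM, with a separate mean for every group. Genes were kept by filterByExpr at a minimum of 10 counts and a total of 15, p-values were adjusted by the Benjamini-Hochberg method over every gene tested, and calls were made below 0.05. One fit covered the cortex (16 libraries, 19199 genes, 8 residual and 4.89 prior degrees of freedom, common biological variation 0.246), and another the 10 wild-type libraries for the stem cell comparison (19466 genes, residual degrees of freedom 5). The method was tested on simulated counts. Log2 CPM for likeness used a prior count of 2. Lower limits and ratios come from Poisson counting at 95% (limit of 3 counts over a group) and cover counting error only. Alternatives were DESeq2 1.42.0, RLE size factors, no filter, other sets of libraries, the replicate number as a block, single genotypes and single libraries left out.

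The members and the gene lists were chosen with earlier results of these data known. All members are named in each comparison, with up to 4 genes of smallest adjusted p per list described (3 of highest level for lists of other cells), and for each member the 3 genes of most similar pattern, leaving out clone and model names. Genes outside this rule (Lct, Lhx1, Trp73, Ebf2, Gabra6, Barhl1, Cbln3, Pou5f1, Tbr1, Gm33460 and Cerkl) were chosen after their values were seen.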

Additional observations from a re-analysis of the deposited data

How the results depend on the processing

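Of the counts of members called, 65 values under other settings stayed within 1.5 times the main one and 4 did not, and of the members' log2 fold changes 388 kept their direction and call, 11 lost the call, 4 gained it and 9 changed sign. Without a filter on low counts, 3 members were called from A6w to A18w (Neurog2, Eomes and Insm1), 1 between genotypes at A18w and 1 for genotype by stage (Eomes in both). That fit has infinite prior degrees of freedom, against 4.89 with the filter, so all genes take their spread from the common trend and none keeps its own. The Eomes calls involve A18w, where 1 library holds most counts. Within WT libraries, 2 members were called from P4 to A6w, from fewer libraries. With all 18 libraries in 1 fit Neurod1 lost its call at that step (-0.53, edgeR adjusted p = 0.0664).

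Replicate numbers pair nothing by the labels, and same-numbered libraries' deviations correlated at 0.478, 0.209, 0.0829 and 0.295 from E17.5 to A18w. With the replicate block, 66 of 67 values kept direction and call, and the E17.5 genotype difference of Nhlh1 changed sign to -0.07.

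Other changes of sign were in differences that did not pass. From A6w to A18w Eomes was -0.072 within WT. Within Mcph1KO libraries, Nhlh1 was -1.05 from P4 to A6w, and from A6w to A18w Nhlh1 was 0.084, Neurod2 0.004 and Neurod6 0.083. Without both A18w libraries numbered 1, chosen after seeing the data, Neurod2 was 0.017 and Neurod6 0.23 at that step. Without both E17.5 libraries numbered 1, also chosen then, the averaged genotype difference of Insm1 was -0.04.

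With each library left out in turn, the members called were 8 to 9 from E17.5 to P4, 4 to 7 from P4 to A6w, 8 to 9 in stem cells and 0 to 0 elsewhere. Log2 fold changes that changed sign ran as follows. From P4 to A6w Nhlh1 ran from -0.19 to 0.77. From A6w to A18w Eomes ran from -1.52 to 2.36, Neurod2 from -0.19 to 0.11 and Neurod6 from -0.33 to 0.14. For genotype averaged over stages, Eomes ran from -0.47 to 1.85, Insm1 from -0.049 to 0.16, Nhlh1 from -0.37 to 0.18, Neurod1 from -0.011 to 0.19, Neurod2 from -0.18 to 0.049 and Neurod6 from -0.24 to 0.10. For genotype at E17.5, Neurog2 ran from -0.68 to 0.36, Eomes from -0.51 to 0.48, Insm1 from -0.43 to 0.055, Nhlh1 from -0.85 to 0.57, Mfng from -0.43 to 0.48, Neurod1 from -0.42 to 0.091, Neurod2 from -0.89 to 0.033 and Neurod6 from -1.11 to 0.21. Eomes ran from -1.12 to 8.15 for genotype at A18w. A left-out library leaves its group with 1, which is then assumed to vary like the other groups. Depth limits Neurog1 after E17.5 and Eomes in the adult, which rest on a few counts a library.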
